A study of Mus musculus with 4 samples.

Results

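Transcripts of 10 genes that make, degrade, bind or sense retinoic acid (RA) were followed in whole mouse embryos with and without Ddx6, an RNA helicase of mRNA decay and translational repression. The genes were taken by symbol: Aldh1a2 and Dhrs3 (retinoid oxidation and reduction), Cyp26a1, Cyp26b1 and Cyp26c1 (RA degradation), Crabp1 and Crabp2 (RA-binding proteins), and Rara, Rarb and Rarg (RA receptors). All 10 were among the 24421 genes of the count table and among the 14393 with at least 10 reads in at least 1 library. Polyadenylated RNA of ICR embryos was sequenced. Wild-type (WT) embryos gave 1 library at embryonic day 7.5 (E7.5) and 1 at E8.5, and Ddx6 KO embryos gave 2 libraries at E8.5 (KO1 and KO2), 4 in all. The KO embryos came from heterozygous crosses of a line in which CAG-Cre, active in all tissues, had removed a floxed Ddx6 exon. Each KO library was a pool of embryos. By the study's description, KO1 mixed the 2 KO morphologies, whereas KO2 held only embryos from before head-fold formation.

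RA is made from vitamin A. Retinol is oxidised to retinaldehyde, and ALDH1A2 oxidises retinaldehyde to RA in the early embryo, mainly in mesoderm of the trunk and the somites. CYP26 enzymes break RA down in the head and the tail bud, which keeps RA to the trunk. RA binds nuclear receptors (RARs) that sit on DNA with RXR partners, and this signal turns on 3′ Hox genes and patterns the hindbrain, the spinal cord and the heart field. Rarb and Cyp26a1 are textbook direct targets of the receptors.

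RARs bind direct repeats of a hexamer, AGGTCA or a variant with G in the first or T in the third place. RefSeq promoters (GRCm38.p6, 250 bases before to 50 bases after a start) were at hand for 9 of the 10 genes, 15 promoters in all, and Crabp2 had no entry. Both strands were searched for repeats with spacers of 1, 2 or 5 bases. Only the promoters of Rarb and Cyp26a1 held one, in each case with a spacer of 5 bases. Such a repeat lay in 32 of 32851 promoters (0.0974%). Repeats with spacers of 1 and 2 bases lay in 0.222% and 0.268% of all promoters and in none of the 15. The pair is shown because the transcripts of these genes, printed later, ordered the 4 libraries differently. Capitals mark the repeat. The Rarb sequence is chr14:16575427-16575726 on the minus strand, and the Cyp26a1 sequence is chr19:37697558-37697857 on the plus strand. Both read 5′ to 3′ towards the gene.
Rarb: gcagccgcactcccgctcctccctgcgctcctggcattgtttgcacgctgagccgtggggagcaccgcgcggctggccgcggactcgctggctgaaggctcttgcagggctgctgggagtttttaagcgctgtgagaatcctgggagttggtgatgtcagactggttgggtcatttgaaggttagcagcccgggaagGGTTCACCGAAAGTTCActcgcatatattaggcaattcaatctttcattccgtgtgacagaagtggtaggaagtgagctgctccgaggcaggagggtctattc
Cyp26a1: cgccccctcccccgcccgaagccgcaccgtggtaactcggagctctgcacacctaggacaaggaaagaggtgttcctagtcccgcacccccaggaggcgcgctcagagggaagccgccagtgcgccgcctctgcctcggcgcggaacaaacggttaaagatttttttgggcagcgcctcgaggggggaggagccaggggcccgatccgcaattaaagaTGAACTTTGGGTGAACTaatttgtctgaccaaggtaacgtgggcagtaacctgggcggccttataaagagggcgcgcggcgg
The Rarb repeat (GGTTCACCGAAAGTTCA) lay 53 to 37 bases before the start on the strand of the gene. The Cyp26a1 repeat (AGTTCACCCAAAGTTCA, read on the opposite strand) lay 32 to 16 bases before the start. A match describes letters and does not show binding.

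Total counts were between 8198402 (KO1) and 12562640 (E8.5 WT). Ddx6 had 2943 reads at E7.5 and 5715 at E8.5 in WT, against 706 in KO1 and 929 in KO2, so both KO libraries were below both WT libraries. Markers of tissues beside the embryo proper differed among the libraries. In CPM (reads scaled to a common library total with the TMM factors of edgeR), the summed level of 5 trophoblast markers was 32.6 CPM at E7.5 and 0.895 at E8.5 in WT, against 2.14 in KO1 and 460.4 in KO2. In KO2 almost all of this came from Prl3d1 (4156 reads) and Prl2c2 (1400 reads), while Prl3b1 and Tpbpa were at 0 in every library. The summed level of 3 maternal decidua markers was 128.6 CPM at E7.5 and 7.40 at E8.5 in WT, against 14.4 in KO1 and 130.5 in KO2. Prl8a2 gave most of it in E7.5 WT and KO2 (1318 and 1433 reads). For 5 uterine natural killer cell markers, of which Gzmg and Gzmd had the most reads, it was 1.68, 0.163, 2.50 and 14.4 CPM (lists of 4 values give the WT stages by age, then KO1, then KO2). For 7 visceral endoderm markers, led by Apob and Cubn, it was 6191, 6569, 3982 and 3873 CPM. Embryonic markers were present in all libraries. The part of these tissues in the results that follow was not tested.

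Of the 10 genes, Aldh1a2 separated the KO libraries most. This gene (chromosome 9, 71215789 to 71296243, plus strand, GRCm38 as for all positions) had 80 reads at E7.5 and 1723 at E8.5 in WT, against 1385 in KO1 and 78 in KO2. KO1 was thus near E8.5 WT and KO2 near E7.5 WT. As TMM-scaled CPM the levels were 6.73, 140.2, 164.9 and 6.40. KO2 was 21.9-fold lower than E8.5 WT (log2 ratio -4.80 to -4.13, exact 95% interval of counting error), whereas KO1 was 1.18-fold higher (0.13 to 0.34). Against E7.5 WT, KO2 did not differ beyond counting error (log2 ratio -0.54 to 0.40) and KO1 was 24.5-fold higher (4.29 to 4.96). Averaged over KO1 and KO2, the log2 change from E8.5 WT came to -2.09 ± 3.29 (SD, n = 2), so the spread between the KO libraries exceeded the mean. In RNA of whole embryos, fewer cells of a type and less transcript per cell cannot be told apart, and this holds for every gene given here.

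Somite and paraxial mesoderm markers were read beside Aldh1a2. The summed level of 9 such markers was 53.2 CPM at E7.5 and 127.2 at E8.5 in WT, against 85.7 in KO1 and 28.8 in KO2, and none of the 9 was at 0 in any library. Of the 8 markers past the count minimum, 6 in KO2 and 3 in KO1 had a log2 change from E8.5 WT below -1, the threshold used throughout (1 for higher genes, on log2 CPM with a prior count of 2). Of all genes tested, 5.91% in KO2 and 3.31% in KO1 were lower by this rule. Mesp2, a marker of forming somites, was past the threshold and higher in KO2, with 69, 11, 10 and 72 reads. The 2 with the most reads were Foxc2 (319, 513, 215 and 137 reads) and Foxc1 (182, 465, 208 and 97 reads), forkhead factors of somite formation. KO2 was the lowest library for both. Over the 4 libraries the pattern of Aldh1a2 was most like that of Npr3, a natriuretic peptide receptor, with 11, 292, 182 and 9 reads. The Euclidean distance of their centred log2 CPM profiles was 0.294, and the next genes were Plagl1 (0.797) and Tbx5 (0.798), a T-box factor of the heart and forelimb fields. With candidates averaging at least 10 counts in place of 50, Npr3 stayed the nearest and the next 2 were other genes. These distances rest on 4 libraries and describe likeness only.

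Dhrs3 reduces retinaldehyde back to retinol and so limits the substrate of ALDH1A2. It lies on chromosome 4 (144892827 to 144928209, plus strand). Dhrs3 had 54 reads at E7.5 and 119 at E8.5 in WT, against 90 in KO1 and 33 in KO2, so KO2 was the lowest library. Its level was 3.58-fold lower in KO2 than in E8.5 WT (log2 ratio -2.44 to -1.27), and in KO1 the interval included 0 (-0.27 to 0.55). KO2 was also below E7.5 WT (-1.42 to -0.09). In KO2 the direction was that of Aldh1a2, at a smaller size. Dlk1 had the nearest pattern (distance 0.127), with 1010, 2416, 1787 and 638 reads.

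**Figure D1:**
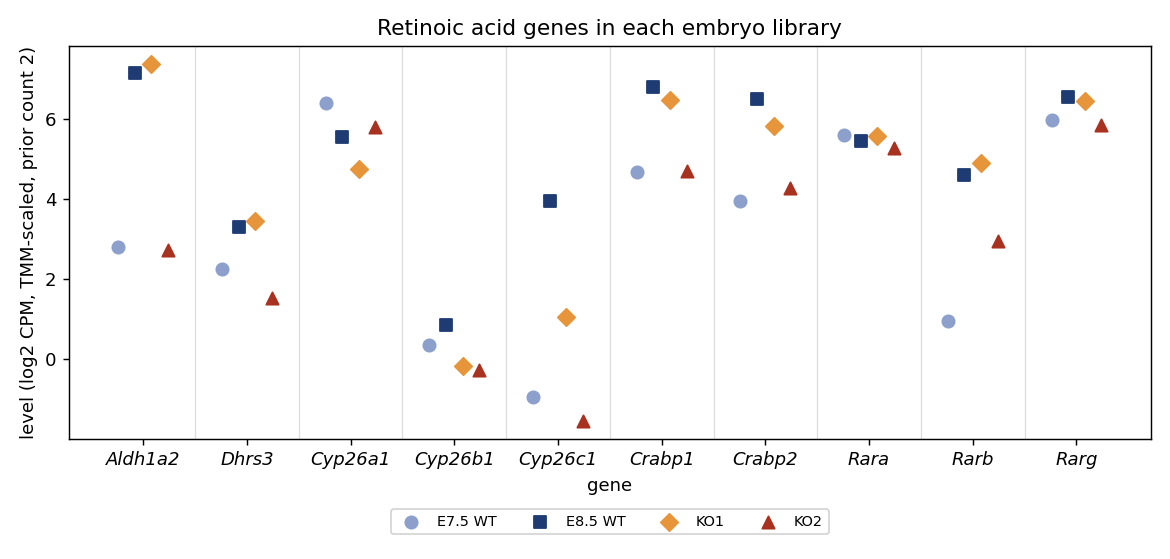
Level of each RA gene in each library as log2 CPM (TMM-scaled, prior count 2), 1 point per library, so no error bar can be drawn. The KO2 points of Aldh1a2, Crabp1 and Crabp2 sit by those of E7.5 WT and the KO1 points nearer to E8.5 WT, while Rara stays between 38.3 and 47.8 CPM and Cyp26a1 has its lowest point in KO1.

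Among the degrading enzymes, Cyp26c1 was low in both KO libraries. Cyp26c1 acts in the anterior neural plate and hindbrain and lies on chromosome 19 (37685581 to 37693398, plus strand), 4399 bases before Cyp26a1. It had 4 reads at E7.5 and 186 at E8.5 in WT, against 16 in KO1 and 2 in KO2. Both KO libraries were far below E8.5 WT, but only KO1 stayed above E7.5 WT. The level was 7.94-fold lower in KO1 (log2 ratio -3.83 to -2.25) and 92.2-fold lower in KO2 (-9.58 to -4.65), the latter on 2 reads. Averaged over KO1 and KO2, its log2 change from E8.5 WT came to -4.18 ± 1.84 (SD, n = 2), the largest of the 10. In KO1 it was the gene farthest from its E8.5 WT level, whereas Aldh1a2 was close to it. Among candidates averaging 50 or more counts, the nearest in pattern were Tbx4 (distance 0.994, with 20, 799, 56 and 5 reads), Hoxb9 (1.004) and Pax2 (1.04). With a minimum of 10 counts none of these 3 was among the nearest, and the first was 5430431A17Rik (0.608), which had 1, 92, 4 and 0 reads.

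Cyp26c1 was set beside markers of the regions in which it is known to act. For 7 hindbrain markers, led by Irx3 and Hoxb2, the summed level was 161.3 CPM at E7.5 and 178.5 at E8.5 in WT, against 170.8 in KO1 and 94.5 in KO2. For 7 anterior neural plate markers, led by Otx2 and Six3, it was 88.0, 150.4, 116.0 and 209.5 CPM. The hindbrain sum in KO1 was thus near that of E8.5 WT, and the anterior sum was highest in KO2. Otx2 gave 2059 of the 2553 anterior reads in KO2. Of the 7 anterior markers, 3 were lower than E8.5 WT past the threshold in each KO library, and only Otx2 was higher, in KO2. Their median log2 changes were -0.98 in KO1 and -0.83 in KO2. Of the 7 hindbrain markers, 1 (Egr2) was lower in KO1 and 5 in KO2, with medians of -0.21 and -1.93. Of all genes tested, 3.31% in KO1 and 5.91% in KO2 were lower, and 4.97% and 9.41% were higher. No hindbrain marker was at 0 in any library, and of the anterior markers only Fezf1 in E7.5 WT was. The part of these regions in the result was not tested.

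Cyp26a1 took another course. The gene (chromosome 19, 37697798 to 37701536, plus strand) is the main RA-degrading enzyme of the gastrula and the tail bud. It had 996 reads at E7.5 and 572 at E8.5 in WT, against 223 in KO1 and 667 in KO2, or 83.7, 46.5, 26.6 and 54.7 CPM. The lowest level was in KO1 and the highest in E7.5 WT. KO1 was 1.75-fold lower than E8.5 WT (log2 ratio -1.04 to -0.58), while KO2 was 1.18-fold higher (0.07 to 0.40). Against E7.5 WT, KO1 was 3.15-fold lower (-1.87 to -1.45) and KO2 1.53-fold lower (-0.76 to -0.47). KO2 had 2.06 times the level of KO1 (0.82 to 1.27), and Cyp26a1 was the only RA gene past the threshold in this direction (5.99% of all genes tested were). The summed level of 8 primitive streak and tail bud markers, led by T and Cdx2, was 541.0 CPM at E7.5 and 342.4 at E8.5 in WT, against 326.0 in KO1 and 201.1 in KO2, with no marker at 0. Single markers differed from the sum. Between KO1 and KO2, T (98.7 and 121.9 CPM), Evx1 (21.9 and 29.8 CPM) and Fgf8 (7.74 and 18.6 CPM) were higher in KO2, as Cyp26a1 was. Of these only Fgf8 was past the threshold. The other 5 were lower in KO2 past the threshold (4.89% of all genes tested were): Cdx2 (77.8 and 12.3 CPM), Wnt3a, Tbx6, Msgn1 and Nkx1-2. The median log2 change of the 8 from KO1 to KO2 was -2.13. The part of this tissue in the Cyp26a1 levels was not tested. Muc13 had the nearest pattern to Cyp26a1 (distance 0.105), with 389, 242, 95 and 280 reads.

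Cyp26b1, an enzyme of the hindbrain and later of limb and gonad (chromosome 6, 84571414 to 84593908, minus strand), was scarce. It had 13 reads at E7.5 and 20 at E8.5 in WT, against 6 in KO1 and 8 in KO2, or 1.09, 1.63, 0.715 and 0.657 CPM. Both KO libraries were below both WT libraries, but by few reads. The log2 ratio to E8.5 WT was -2.79 to 0.18 in KO1, which includes 0, and -2.70 to -0.07 in KO2. Its log2 changes of -1.02 and -1.11 only just passed the threshold. Under plain CPM, without TMM factors, it did not pass in both KO libraries.

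The make-up of the Cyp26 reads differed accordingly. Cyp26c1 gave 0.395% of the reads of the 3 genes in E7.5 WT (exact Clopper-Pearson 95% interval 0.108 to 1.01), 23.9% in E8.5 WT (21.0 to 27.1), 6.53% in KO1 (3.78 to 10.4) and 0.295% in KO2 (0.0358 to 1.06). The intervals of E7.5 WT and KO2 overlapped, and those of E8.5 WT and KO1 stood apart from them and from each other. Cyp26a1 gave the rest almost alone, with 98.3% in E7.5 WT and 98.5% in KO2, against 73.5% in E8.5 WT and 91.0% in KO1.

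The ratio of Aldh1a2 to Cyp26a1 reads spanned a wide range. It compares transcripts of whole embryos and measures neither enzyme activity nor RA. Aldh1a2 had 0.0803 reads for each Cyp26a1 read in E7.5 WT (95% interval 0.0631 to 0.101), 3.01 in E8.5 WT (2.74 to 3.32), 6.21 in KO1 (5.39 to 7.19) and 0.117 in KO2 (0.0913 to 0.148). KO1 was above E8.5 WT and KO2 was far below it. The KO2 and E7.5 WT intervals overlapped. Per kilobase of annotated exon and against all 3 Cyp26 genes, the ratios were 0.0697, 1.91, 4.98 and 0.102 in the same order. The KO1 value combines an Aldh1a2 level near that of E8.5 WT with lower Cyp26a1 and Cyp26c1 levels.

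**Figure D2:**
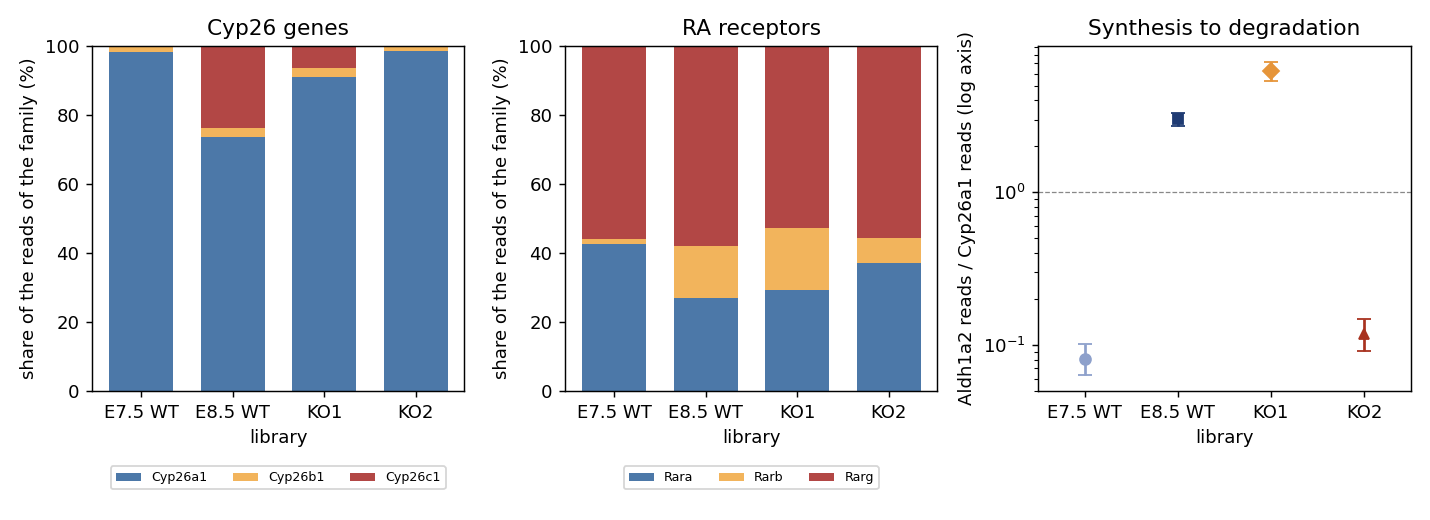
Share of the reads of the 3 Cyp26 genes (left) and of the 3 RA receptors (middle) that each gene gave in each library, in percent, and reads of Aldh1a2 for each read of Cyp26a1 on a log axis with exact 95% intervals of counting error (right). The Cyp26c1 share is 23.9% in E8.5 WT and 6.53% in KO1, the Rarb share is 18.0% in KO1 and 7.32% in KO2, and the ratio is higher in E8.5 WT (3.01) and KO1 (6.21) than in E7.5 WT (0.0803) and KO2 (0.117).

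The binding proteins had like patterns. Crabp1, which holds RA in the cytoplasm and is found in hindbrain and neural crest, lies on chromosome 9 (54764748 to 54773110, plus strand). It had 298 reads at E7.5 and 1346 at E8.5 in WT, against 743 in KO1 and 315 in KO2. Crabp2, which carries RA to the receptors, lies on chromosome 3 (87948666 to 87953376, plus strand). It had 181, 1101, 472 and 233 reads in the same order. For both genes E8.5 WT was the highest library, KO1 came next, and KO2 was close to E7.5 WT. In KO2 Crabp1 was 4.24-fold lower than in E8.5 WT (log2 ratio -2.27 to -1.91) and Crabp2 4.69-fold lower (-2.44 to -2.02). In KO1 the differences were 1.24-fold (-0.44 to -0.18) and 1.59-fold (-0.83 to -0.52), lower but short of the threshold.

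Against E7.5 WT the KO2 level of Crabp1 did not differ beyond counting error (log2 ratio -0.19 to 0.28), and that of Crabp2 was 1.26-fold higher (0.04 to 0.62). Crabp2 had 0.607 reads for each Crabp1 read in E7.5 WT (95% interval 0.502 to 0.733), 0.818 in E8.5 WT (0.755 to 0.887), 0.635 in KO1 (0.565 to 0.714) and 0.740 in KO2 (0.622 to 0.879). The E7.5 WT and KO1 intervals lay below that of E8.5 WT, and the KO2 interval overlapped all 3. The profiles of the pair were the closest among the 10 RA genes, at a distance of 0.34. Foxd4 was still nearer to Crabp1 (0.053, with 70, 332, 174 and 75 reads), and Cacna1g was nearest to Crabp2 (0.117, with 38, 236, 98 and 53 reads). The third gene by likeness to Crabp1 was Meis1 (distance 0.19), a homeobox partner of Hox proteins.

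Of the receptors, Rarb varied most. Rarb (chromosome 14, 16430839 to 16819156, minus strand) is itself induced by RA and carries the repeat shown above. It had 21 reads at E7.5 and 296 at E8.5 in WT, against 246 in KO1 and 92 in KO2, or 1.77, 24.1, 29.3 and 7.55 CPM. KO2 lay between the WT stages, and KO1 was slightly above E8.5 WT. The KO2 level was 3.19-fold lower than in E8.5 WT (log2 ratio -2.03 to -1.33) and 4.28-fold higher than in E7.5 WT (1.40 to 2.86). KO1 was 1.22-fold higher than E8.5 WT (0.03 to 0.53). Rarb was the only one of the 10 past the threshold against E7.5 WT in both KO libraries (6.91% of all genes tested were higher in both), with a mean log2 change of 2.96 ± 1.37 (SD, n = 2). Its annotation overlaps Top2b and the antisense RNA Gm48162 on the other strand. The counts were made strand-specifically. Rarb and Cyp26a1, which share the promoter repeat, did not share a pattern: Rarb was highest in KO1, where Cyp26a1 was lowest.

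Rara and Rarg varied little. Rara (chromosome 11, 98927818 to 98974942, plus strand), the most widely expressed receptor, had 569, 535, 399 and 467 reads, or 47.8, 43.5, 47.5 and 38.3 CPM. The log2 ratio to E8.5 WT was -0.06 to 0.32 in KO1 and -0.366 to -0.002 in KO2. The KO mean of its log2 change from E8.5 WT came to -0.03 ± 0.22 (SD, n = 2). Rarg (chromosome 15, 102234938 to 102257517, minus strand), the receptor of the streak and tail region, had 747, 1144, 721 and 698 reads, or 62.8, 93.1, 85.9 and 57.3 CPM. Rarg was 1.62-fold lower in KO2 than in E8.5 WT (-0.84 to -0.56), and KO1 did not differ beyond counting error (-0.25 to 0.02). The share of Rarb in the receptor reads was 1.57% in E7.5 WT (95% interval 0.975 to 2.39), 14.99% in E8.5 WT (13.4 to 16.6), 18.0% in KO1 (16 to 20.2) and 7.32% in KO2 (5.94 to 8.90). Rarg gave between 52.8% and 57.9% in every library, and Rara between 27.1% and 42.6%.

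The order of levels among the 10 genes was taken per kilobase of annotated exon, as TMM-scaled CPM. The shares and ratios of reads given above are not corrected for length and compare libraries, not genes. In E7.5 WT the order began with Cyp26a1 (42.2), Crabp1 (31.2) and Rarg (14.7), and Aldh1a2 was sixth (2.97). In E8.5 WT it began with Crabp1 (136.6), Crabp2 (67.8) and Aldh1a2 (61.9), ahead of Cyp26a1 (23.5). KO1 also began with Crabp1 (110.3), Aldh1a2 (72.9) and Crabp2 (42.5). KO2 began with Crabp1 (32.2) and Cyp26a1 (27.6), and Aldh1a2 was again sixth (2.83). So the leading gene of E7.5 WT was Cyp26a1 and that of the other libraries was Crabp1. With the longest transcript as length, counting error did not separate Crabp1 (32.2) from Cyp26a1 (30.6) in KO2. By that length Rarg (31.5) was ahead of Cyp26a1 (26.0) in E8.5 WT. The neighbours that follow are by summed exons. Neighbours that counting error did not separate were Crabp2 and Rara as well as Rarb, Cyp26b1 and Cyp26c1 in the E7.5 library. For E8.5 WT they were Cyp26a1 and Rarg as well as Rara and Cyp26c1. In KO2 they were Crabp2 and Rarg as well as Cyp26b1 and Cyp26c1, and in KO1 there were none.

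The WT stages were compared to see what a day of normal development brings. Of the 10 genes, 6 were past the threshold of a log2 change above 1 in E8.5 WT: Aldh1a2, Dhrs3, Cyp26c1, Crabp1, Crabp2 and Rarb. Of all genes tested, 12.2% were higher by this rule and 7.82% lower, and none of the 10 was lower. The ratios from reads were 20.8-fold for Aldh1a2 (log2 ratio 4.06 to 4.72), 45-fold for Cyp26c1 (4.11 to 7.38, on 4 reads in E7.5 WT) and 13.6-fold for Rarb (3.13 to 4.48). Crabp2 was 5.89-fold, Crabp1 4.37-fold and Dhrs3 2.13-fold higher. Cyp26a1 was 1.80-fold lower (-0.998 to -0.698). Each stage had 1 library, so these differences have no replicate check.

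Against E8.5 WT, 0 of the 10 genes were higher in KO1, where 4.97% of all genes tested were, and 2 were lower (Cyp26b1 and Cyp26c1), where 3.31% were. In KO2, 0 were higher (9.41% of all genes) and 7 were lower (5.91% of all genes). The 7 were Aldh1a2, Dhrs3, Cyp26b1, Cyp26c1, Crabp1, Crabp2 and Rarb. In both KO libraries together, 0 were higher (3.44% of all genes) and Cyp26b1 and Cyp26c1 were lower (1.79% of all genes). For the 10 genes the median log2 change was -0.21 for KO1 and -1.71 for KO2, beside -0.008 and -0.001 over all genes tested.

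Against E7.5 WT, the 6 genes that were higher in E8.5 WT were also higher in KO1 (13.2% of all genes), and Cyp26a1 was lower (7.45% of all genes). In KO2 only Rarb was higher (10.9% of all genes), and 0 were lower (4.06% of all genes). In both KO libraries Rarb alone was higher (6.91% of all genes), and 0 were lower (2.70% of all genes). The medians of the 10 were 1.51 in KO1 and -0.23 in KO2, beside 0.02 and 0.07 over all genes. Both comparisons use the same KO libraries, and KO1 and KO2 share each WT library, so these counts are not independent.

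KO2 was lower than KO1 for the same 6 genes (4.89% of all genes) and higher for Cyp26a1 (5.99% of all genes). Their ratios ran from 2.94-fold for Crabp2 to 25.8-fold for Aldh1a2. On the log2 scale KO1 was nearer to E8.5 WT than to E7.5 WT for 7 of the 10 genes, where 69.2% of all genes tested were. KO2 was nearer to E8.5 WT for 3 of the 10 (Cyp26a1, Rara and Rarb), where 58.5% of all genes were.

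**Figure D3:**
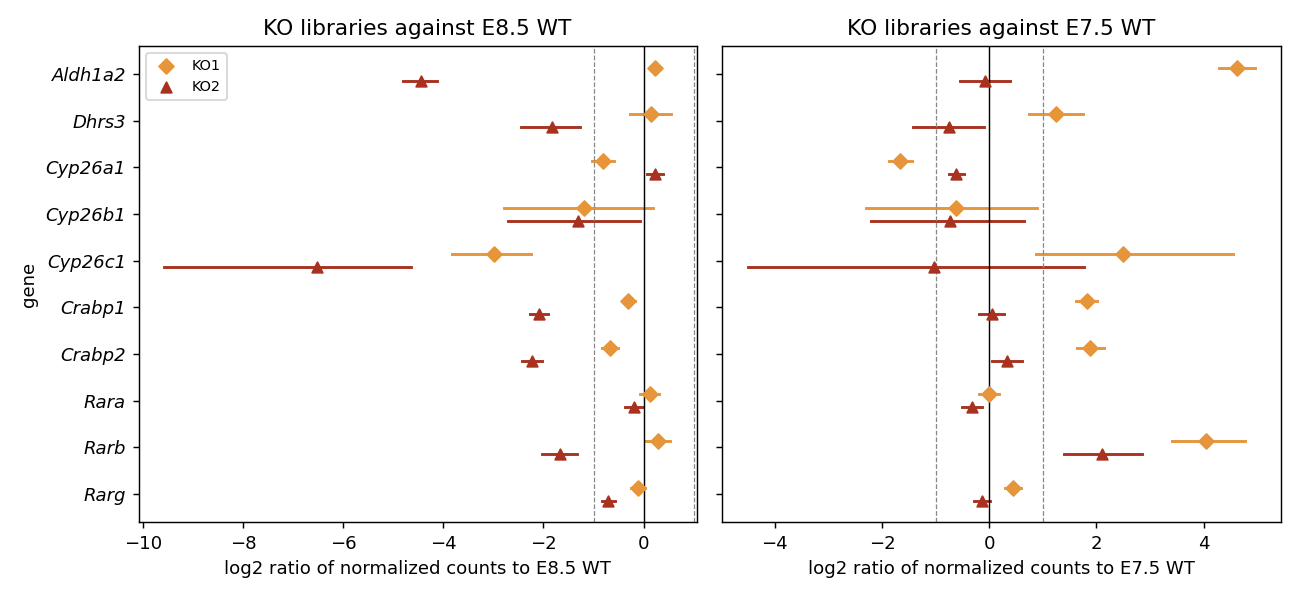
Log2 ratio of normalized counts of each KO library to E8.5 WT (left) and to E7.5 WT (right), with exact 95% intervals of counting error as bars and the thresholds of 1 and -1 dashed. Against E8.5 WT, KO2 lies below -1 for 7 genes and KO1 for Cyp26b1 and Cyp26c1, and against E7.5 WT only Rarb lies above 1 in both KO libraries.

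No RA gene passed a test against E8.5 WT, a stage with 1 library. The edgeR test did not call Ddx6 either, while DESeq2 did, so a missing call does not show that a gene was unchanged. The edgeR quasi-likelihood test, in which the spread came from the KO pair, called 0% of the 14393 genes after Benjamini-Hochberg adjustment, and 1052 genes had an unadjusted p below 0.05. Among the 10, only Cyp26c1 did (edgeR adjusted p = 0.666, lower in 2 of 2 KO libraries). For Aldh1a2 the edgeR adjusted p was 0.900. DESeq2 called 31 genes (0.215%), 0 of the 10 among them. It gave no adjusted p for 2512 of the 14393 genes, Cyp26b1 among them, so these could not be called.

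Against E7.5 WT the edgeR test again called 0% of the genes, with 3511 at an unadjusted p below 0.05. Of the 10, only Rarb was at that level (edgeR adjusted p = 0.179, higher in 2 of 2 KO libraries). DESeq2 gave no adjusted p for 2791 genes, again with Cyp26b1. It called 721 genes (5.01%), Rarb among them with an adjusted p of 0.00538. The call of Rarb thus depended on the tool. The KO pools differed in morphology, so the spread between replicates and the difference between morphologies cannot be told apart.

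Genes known to respond to RA also differed between the KO libraries. The list held 17 genes, of which 16 were tested and Stra8 was under the count minimum. In KO1, 2 were lower than E8.5 WT and 0 higher, with a median log2 change of -0.04. In KO2, 13 were lower and 1 higher (Tgm2, transglutaminase, with a log2 change of 1.12), with a median of -3.01. Of all genes tested, 3.31% in KO1 and 5.91% in KO2 were lower, and 4.97% and 9.41% were higher. The genes lower in both were Hoxd4 and Nr2f2 (1.79% of all genes were). Hoxd4, a 3′ Hox gene, had 13 reads at E7.5 and 259 at E8.5 in WT, against 42 in KO1 and 2 in KO2, and Nr2f2, an orphan nuclear receptor, had 92, 369, 105 and 92. In KO2 both were at or below their E7.5 WT level. Of the same 16 genes, 12 were higher in E8.5 WT than in E7.5 WT (median 2.07), where 12.2% of all genes tested were. In KO1, 11 were higher than in E7.5 WT (median 2.13), where 13.2% of all genes were. In KO2, 0 were higher than in E7.5 WT (10.9% of all genes). There 6 were lower (4.06% of all genes), among them Hoxb1, Hoxa3 and Cdx1, and the median was -0.44.

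Single response genes differed widely in KO2. Cdx1, a homeobox regulator of Hox genes, had 118 reads at E7.5 and 1391 at E8.5 in WT, against 806 in KO1 and 22 in KO2. It was within the threshold of E8.5 WT in KO1 and, unlike Rarb, lower in KO2 than in E7.5 WT. Meis2, a homeobox gene and among the most abundant of the list, had 338, 1475, 1111 and 410 reads. Against E8.5 WT its log2 changes were 0.14 for KO1 and -1.83 for KO2. Several of the list also mark posterior or hindbrain tissue, and the levels of those markers are given above.

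Genes of retinoid supply split less. Of 15 genes, 9 were tested, and Adh7, Aldh1a1, Aldh1a3, Aldh8a1, Rbp2 and Lrat were under the count minimum, so Aldh1a2 alone of the RA-forming aldehyde dehydrogenases listed reached 10 reads in a library. Their median log2 change from E8.5 WT was -0.15 for KO1 and -0.17 for KO2, and -0.24 and -0.35 without Adh1, which had at most 3 reads in each of the libraries compared. Rbp4, the plasma carrier of retinol, stood lower in KO1 and KO2, with 5817 reads at E7.5 and 4720 at E8.5 in WT, against 1417 in KO1 and 1372 in KO2. Its log2 changes against E8.5 WT were -1.19 and -1.77. Ttr, which binds RBP4, had 5039, 4216, 1550 and 1827 reads, with log2 changes of -0.89 and -1.19. Both are made by visceral endoderm, whose markers were uneven. Of 7, Apoa1 and Apom were past the threshold and lower in both KO libraries (1.79% of all genes tested were). The log2 changes of Hnf4a were -0.07 and -0.03 and those of Amn -0.18 and 0.19. The part of this tissue in the Rbp4 and Ttr levels was not tested. Stra6, the RBP4 receptor, was past the threshold in KO2 only (194, 435, 187 and 97 reads). Rdh10, which makes the retinaldehyde used by ALDH1A2, had 263, 442, 273 and 390 reads, with log2 changes of -0.15 and -0.17.

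Receptor partners and coregulators stayed near their E8.5 WT levels. All 14 genes were tested, and 0 passed the threshold against E8.5 WT in either KO library, with medians of 0.04 in both. Of all genes tested, 4.97% were higher and 3.31% lower in KO1, and 9.41% and 5.91% in KO2. At those shares few calls would fall among 14 genes. Among the most abundant were Rere (3102, 3884, 2589 and 3270 reads) and Ncor1 (2234, 3032, 2207 and 3060 reads), both regulators that act with nuclear receptors. Against E7.5 WT, Ncoa2 and Nrip1 were higher in both KO libraries (6.91% of all genes tested were). Nrip1, a corepressor, had 80, 383, 172 and 250 reads.

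**Figure D4:**
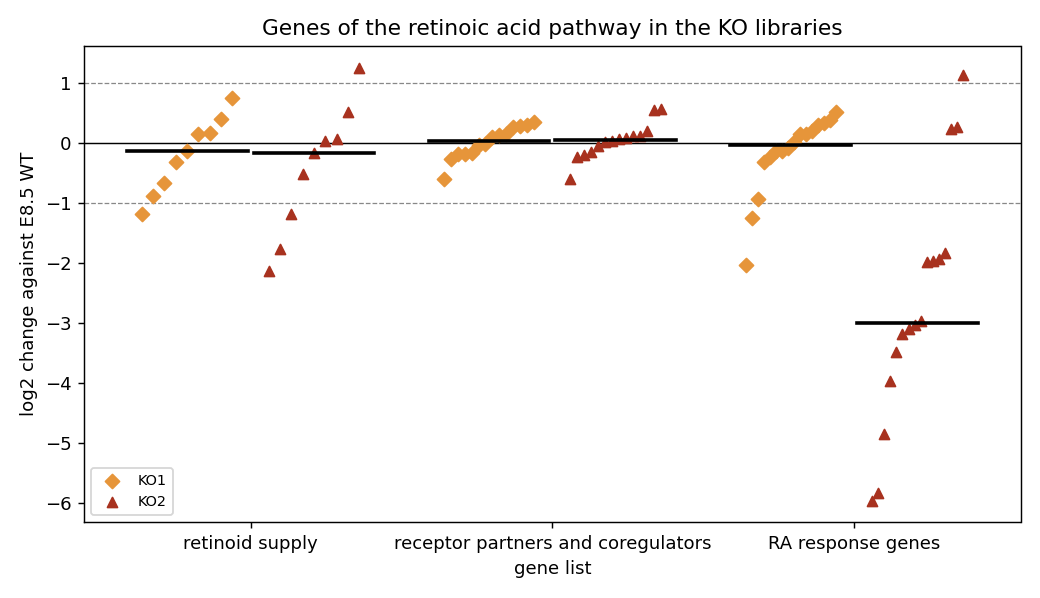
Log2 change (TMM-scaled CPM, prior count 2) of each tested gene of retinoid supply, of receptor partners and coregulators, and of RA response genes in KO1 and KO2 against E8.5 WT, 1 point per gene sorted by value, with the list median as a black bar and the thresholds of 1 and -1 dashed. In KO2, 13 of 16 response genes lie below -1, as do 5.91% of all genes tested, while 0 of 14 partners and coregulators pass either threshold in either library.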

How the data were processed

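Groups were taken from the sample labels. The authors deposited raw counts per gene without normalization. Per the authors' methods and processing notes, reads were trimmed with cutadapt 2.8, aligned to mm10 with HISAT2 2.1.0, sorted with SAMtools 1.9 and counted strand-specifically over exons with featureCounts 2.0.0.

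From these counts, TMM factors (0.983 to 1.02) were computed on the whole table with edgeR 4.0.16 in R 4.3.3. A gene was tested if any library had 10 or more counts for it. Log2 changes were differences of log2 CPM with a prior count of 2. The threshold was a log2 change above 1 or below -1, the criterion of the study, and carries no p-value. Ratios came from the counts themselves, with exact Clopper-Pearson 95% intervals (scipy 1.17.1). Intervals cover counting error only, because each comes from the counts of single libraries. The reads carry no molecular identifiers and may repeat a molecule, so the intervals may be too narrow even for counting error. Two-sided edgeR quasi-likelihood tests used all 4 libraries in 3 groups. DESeq2 1.42.0 was the alternative test. Whether the KO pools shared litters is not given in the sources used here, so p-values measure only the spread between these libraries.

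The 10 genes and the gene lists were chosen with earlier results of these data known. Named are the 10 genes and Ddx6. Of each pathway list, those called in KO1 and KO2 alike against E8.5 WT and the 3 with the most reads are named. Of each marker list the 2 with the most reads are named, and for each RA gene the nearest in pattern among the 3 nearest of 11222 candidates averaging 50 or more counts. Cdx1, Tgm2, Evx1, Fgf8, Mesp2, Apoa1, Apom, Hnf4a, Amn, 5430431A17Rik, Stra6, Rdh10, Ncoa2, Nrip1 and genes listed beside a count were named after their values were seen. Some genes that this rule would name are not reported here. Exon lengths and positions came from GENCODE (GRCm38, the assembly of mm10). Plots used matplotlib 3.10.9 (Python 3.11.15). As alternatives, DESeq2 size factors replaced TMM, and plain CPM, no count minimum, a minimum of 50 counts, a prior count of 0.5, a threshold of 2, fits with 1 WT stage, the longest transcript as length, candidates for likeness averaging at least 10 counts, and leaving out each KO library were tried.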

Additional observations from a re-analysis of the deposited data

How the results depend on the processing

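Of 201 values under alternatives, 177 were kept and 24 were not. Counts and ratios were kept if equal or close to the main value, and log2 changes if within the spread. A kept count could still lose a gene. At a threshold of 2, Dhrs3 was no longer among the RA genes higher in E8.5 WT than in E7.5 WT, which left 5. With 2 KO libraries, leaving out 1 could not take a mean log2 change outside the spread, but signs changed. Against E8.5 WT, leaving out KO2 turned Aldh1a2 (-2.09 to 0.23), Dhrs3, Rara and Rarb positive, and leaving out KO1 did so for Cyp26a1. Against E7.5 WT, leaving out KO1 turned Aldh1a2 (2.26 to -0.07), Dhrs3, Cyp26c1 and Rarg negative. The 2 RA genes lower in both KO libraries against E8.5 WT became 1 (Cyp26c1) under plain CPM, a minimum of 50 counts or a threshold of 2, and leaving out a KO library gave 2 to 7, with 7 without KO1. The 1 higher in both against E7.5 WT became 0 at a threshold of 2, with 1 to 6 on leaving out a KO library (6 without KO2). The 0 lower there became 0 to 1 (Cyp26a1, without KO2). Between the KO libraries, a threshold of 2 left 0 higher and 2 lower (Aldh1a2 and Cyp26c1). Genes called against E8.5 WT were 31 with DESeq2, 8 with no count minimum and 1 in the fit without E7.5 WT. With E7.5 WT as the reference, DESeq2 called 721 and the fit with no minimum 728, and 1 RA gene (Rarb) was called, by DESeq2. The cause of these shifts was not tested. Of 60 mean log2 changes of the RA genes under other scaling or another prior count, 58 stayed within the spread. The others were Cyp26b1 with a prior count of 0.5, at -1.20 against E8.5 WT and -0.64 against E7.5 WT. With candidates averaging at least 10 counts, the 3 genes nearest in pattern kept 0 for Cyp26c1, 1 each for Aldh1a2, Cyp26b1 and Crabp2, and 2 or 3 for the others. Plain CPM put the median of all genes at 0.115 in KO2 against E7.5 WT, where TMM gave 0.07. The longest transcript in place of summed exons left the ratio of Aldh1a2 to the Cyp26 genes above 1 in E8.5 WT (1.77) and KO1 (4.53) only. No paired analysis was possible because only the KO group had more than 1 library. With 1 library a WT stage, differences could be set against counting error and the KO pair alone, and genes such as Cyp26b1 (at most 20 reads) allow no firm order.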
